A study of Homo sapiens with 18 samples.

Results

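The matrix metalloproteinases (MMPs), the ADAMTS proteases and their inhibitors, the TIMPs, were followed through a knockout and rescue experiment in MDA-MB-231 cells, a human triple-negative breast cancer line. Members were all genes with a protein_coding transcript whose symbol is MMP, ADAMTS or TIMP followed by its number, which gave 46 genes (23 MMP, 19 ADAMTS and 4 TIMP genes) of 62749 in the files, of which 19644 have a protein_coding transcript. IMPDH2, the gene targeted, encodes an enzyme that limits the rate of new guanine nucleotide synthesis. The series has 18 RNA-seq libraries in 6 groups of 3. KO+G cells lack IMPDH2 and were grown with 400 µM guanosine, a nucleoside that cells can salvage into guanine nucleotides. KO-WT cells are knockout cells given IMPDH2 with no added localisation signal, KO-NLS cells are knockout cells given nuclear IMPDH2, and KO-NES cells are knockout cells given cytosolic IMPDH2. KO cells are the knockout with nothing added, and WT cells are unedited. All groups except WT carry the knockout, and only KO+G received guanosine. The labels do not say whether the knockout is 1 clone, how the returned forms were driven, or whether replicates are separate cultures. Knockout and clone therefore cannot be told apart, and p-values measure the spread between these libraries, which may be technical.

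Matrix metalloproteinases are zinc enzymes that cut collagens, laminins, proteoglycans and many other extracellular proteins. Most are made as inactive precursors and are switched on by removal of a propeptide. The ADAMTS proteases are secreted relatives that carry thrombospondin repeats and process procollagens, aggrecan, versican and von Willebrand factor. TIMPs block the active site of these enzymes, and in breast tumours and their stroma the balance of protease and inhibitor is known to bear on invasion and matrix turnover.

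The largest change among members that averaged at least 1 CPM was in MMP1, the interstitial collagenase, whose RNA was 10.6-fold higher in KO cells than in WT cells. MMP3, a stromelysin that also activates other pro-MMPs, was 6.98-fold higher in KO cells. The membrane-type enzymes MMP14 and MMP16 and the inhibitors TIMP2, TIMP3 and TIMP4 were lower in KO cells, whereas TIMP1 was higher. MMP1 and MMP3 were lower in KO+G cells than in KO cells, and both stayed above every WT library. MMP1 was also lower in KO-WT and KO-NLS cells than in KO cells, by less than in KO+G cells. MMP3 was higher in KO-WT and KO-NES cells than in KO cells. MMP3 was also the member with the largest difference between the nuclear and cytosolic forms, 3.36-fold lower in KO-NLS cells than in KO-NES cells.

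Library totals ran from 45865079 to 63276484 estimated counts. IMPDH2 averaged 41.6 ± 0.567 CPM (a gene's counts scaled to a common library size) in KO cells and 319 ± 0.557 CPM in WT cells (SD, n = 3 each), which gave a log2 fold change of -2.94. It averaged 22.1 CPM in KO+G, 532 in KO-WT, 297 in KO-NLS and 379 in KO-NES cells. The mesenchymal markers of MDA-MB-231 were present, with VIM at 2039 TPM (a level also scaled to transcript length) in KO and 2822 TPM in WT cells. ESR1, PGR and CDH1 stayed under 0.5 TPM in all libraries. All 8 mesenchymal markers passed as lower in KO than in WT cells, where 36.8% of all genes passed as lower and 35.9% as higher. Of the 7 luminal and epithelial markers tested, 5 passed as lower, led by CLDN4 and KRT18, and 1 as higher. Of 10 fibroblast, blood and endothelial markers, 9 averaged under 1 TPM in KO cells and 8 in WT cells. The summed level of those 10 was 459 to 506 TPM in KO and 96.5 to 105 TPM in WT cells, nearly all of it CD68, a lysosomal protein, at 483 TPM in KO and 97.7 TPM in WT cells. CD3E and CDH5 had 0 counts in the KO libraries and 1 count each in WT, and PTPRC averaged 0.119 TPM in KO and 0.139 TPM in WT cells. Of the 7 of these markers tested, CD68 passed as higher and PDGFRB and PECAM1 as lower in KO. PDGFRB averaged 1.29 CPM in KO and 4.83 CPM in WT cells, and PECAM1 averaged 4.91 CPM in KO and 11.1 CPM in WT cells. The part that these marker shifts have in the protease results was not tested. Between replicates the chi-square per gene was 3.69 to 8.74, where sampling alone gives about 1, and the highest pairs were those with KO-NES replicate 3.

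Of the 46 members, 31 passed the filter on low counts (14 MMP, 13 ADAMTS and all 4 TIMP genes). The other 15 were ADAMTS2, ADAMTS4, ADAMTS8, ADAMTS10, ADAMTS19, ADAMTS20, MMP7, MMP8, MMP12, MMP17, MMP20, MMP25, MMP26, MMP27 and MMP28. They did not exceed 0.129 TPM in any library, and their counts summed over 18 libraries ran from 0 to 82. ADAMTS10, MMP20 and MMP27 had no count at all. They were not tested.

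Of these genes, 9 form a cluster on chromosome 11: MMP7, MMP20, MMP27, MMP8, MMP10, MMP1, MMP3, MMP12 and MMP13 lie at chr11:102520508-102955734 (GRCh38, GENCODE 29). Only MMP1, MMP3, MMP10 and MMP13 were tested. The stretch of messenger RNA that codes for the zinc-binding histidines is shown here, because it is a conserved part of the protease fold and shows how far RNA of these neighbours can be told apart. Each line is 33 bases of coding sequence from the GENCODE 29 transcript. MMP1 is the reference and is printed in lower case, and capitals in the other lines mark bases that equal those of MMP1.
MMP1: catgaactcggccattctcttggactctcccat
MMP3: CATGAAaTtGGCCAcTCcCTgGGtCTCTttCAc
MMP10: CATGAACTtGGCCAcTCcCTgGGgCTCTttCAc
MMP13: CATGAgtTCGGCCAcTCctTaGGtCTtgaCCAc
MMP14: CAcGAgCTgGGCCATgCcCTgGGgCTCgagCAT
ADAMTS7: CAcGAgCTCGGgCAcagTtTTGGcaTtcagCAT
MMP10 shares 25 of the 33 bases with MMP1, MMP3 shares 24, MMP14 shares 23, MMP13 shares 22 and ADAMTS7 shares 20. Over whole transcripts, no 31-base word of MMP3, MMP10 or MMP13 occurs in the main MMP1 transcript. MMP3 and MMP10 share 125 such words of the 2047 in MMP3 and the 1756 in MMP10, so reads between that pair can be split in error, and MMP10, the much lower of the pair, is reported as uncertain.

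RefSeq promoters (GRCh38.p14, 250 bases before to 50 after the start) were available for 27 of the 46 members, in 28 windows. Of the cluster, MMP1, MMP3, MMP12 and MMP13 had no window, so their promoters were not searched. The AP-1 element, to which FOS and JUN proteins bind, was searched as TGANTCA, and the TATA box as TATAAA, each on both strands. The AP-1 letters were found in 4 members (MMP10, MMP7, MMP20 and ADAMTS12) and in 7.71% of all 35116 promoters. The TATA letters were found in 7 members and in 11.5% of all promoters, and both together in 3 members (MMP10, MMP7 and MMP20, all in the cluster) and in 1.31% of all promoters. The 120 bases before the start are shown for MMP10 and MMP7, as examples of the cluster members that hold both, for ADAMTS12, which holds the AP-1 letters alone, and for TIMP1 and MMP14, which hold neither. Capitals mark the searched letters, and each sequence reads 5′ to 3′ on its gene's own strand.
MMP10, chr11:102780629-102780748, minus strand: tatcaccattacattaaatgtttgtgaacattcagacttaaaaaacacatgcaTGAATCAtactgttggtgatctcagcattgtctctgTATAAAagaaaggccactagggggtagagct
MMP7, chr11:102530748-102530867, minus strand: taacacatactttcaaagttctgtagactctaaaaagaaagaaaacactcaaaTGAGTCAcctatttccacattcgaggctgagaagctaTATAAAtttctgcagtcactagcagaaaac
ADAMTS12, chr5:33891991-33892110, minus strand: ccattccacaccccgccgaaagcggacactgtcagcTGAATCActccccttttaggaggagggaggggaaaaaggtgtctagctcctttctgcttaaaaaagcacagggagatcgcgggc
TIMP1, chrX:47582316-47582435, plus strand: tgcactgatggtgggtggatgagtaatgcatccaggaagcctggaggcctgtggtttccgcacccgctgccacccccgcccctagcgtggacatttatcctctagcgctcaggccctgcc
MMP14, chr14:22836465-22836584, plus strand: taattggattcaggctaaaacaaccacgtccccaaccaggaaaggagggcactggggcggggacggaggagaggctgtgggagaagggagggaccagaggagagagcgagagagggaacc
In MMP10 and MMP7 the AP-1 letters begin 67 bases before the start. The TATA letters begin 31 bases before it in MMP10 and 30 bases before it in MMP7. A match is a description of the letters and not of a bound factor, and other forms of these elements were not searched. MMP10 RNA was detected in every library and MMP7 RNA was at or near 0 in all of them, while both promoters hold both sets of letters.

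Between KO and WT cells, 23 of the 31 tested members passed edgeR's quasi-likelihood test at a Benjamini-Hochberg adjusted p under 0.05. As higher in KO, 11 passed (background over all genes 35.9%), and as lower, 12 (background 36.8%). Of all 19252 genes tested, 72.7% passed in this comparison, so that count is near the background. With a log2 fold change of at least 1 in size as well, the count was 14 of 31 members (45.2%), against 22.7% of all genes. The median size of the log2 fold change was 0.85 over the members and 0.49 over all genes. KO and WT libraries did not overlap for 25 members (80.6%), against 74.7% of all genes. Among MMPs, MMP1, MMP3, MMP10, MMP11 and MMP19 passed as higher, and MMP2, MMP14, MMP15, MMP16 and MMP24 as lower. Among ADAMTS genes, ADAMTS7, ADAMTS9, ADAMTS16, ADAMTS17 and ADAMTS18 passed as higher, and ADAMTS3, ADAMTS6, ADAMTS12 and ADAMTS15 as lower. These are values on TMM-scaled counts, and scaling by library totals instead moves the median of all genes in this comparison by 0.155 on the log2 scale, a shift as large as the whole ADAMTS6 difference of -0.15.

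**Figure D1:**
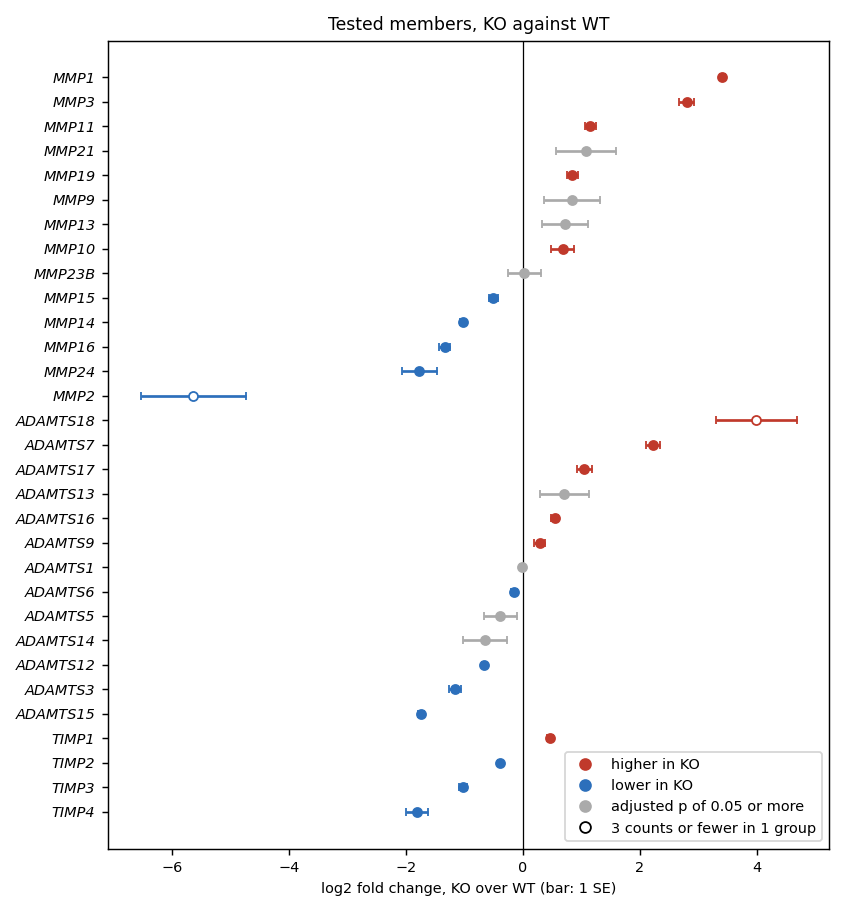
Log2 fold change of KO over WT (x axis) for the 31 tested members, sorted within each family, with bars of 1 SE. Points right of 0 are higher in KO cells, MMP1 lies at 3.41 and MMP3 at 2.80, and open points (MMP2, ADAMTS18) have 3 counts or fewer in 1 group, so that their position depends on the fit.

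MMP1 cleaves fibrillar collagen and sits in the chromosome 11 cluster at chr11:102789920-102798160 (GRCh38). It had 22573, 21745 and 21021 CPM in KO libraries, against 2012, 2128 and 2005 CPM in WT libraries. The groups lay far apart, with a log2 fold change of 3.41 ± 0.04 (SE, edgeR adjusted p = 3.13e-20). On the per-length scale, MMP1 averaged 14873 TPM in KO and 1412 TPM in WT cells, which ranked it number 3 of 19644 coding genes in KO and number 76 in WT cells. MMP1 alone took 2.30% of all counts in KO libraries, against 0.194% in WT libraries. Among counts of the 46 members, its share was 93.1 to 93.8% in KO and 47.7 to 49.9% in WT libraries. In RNA from a whole culture, more expressing cells and more RNA per expressing cell cannot be told apart.

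Every group that carries the knockout kept MMP1 far above WT. It had 9934, 10570.2 and 10256 CPM in KO+G libraries, all below every KO library, a log2 fold change of -1.09 ± 0.04 against KO (edgeR adjusted p = 9.37e-14). It had 16101, 17145 and 16523 CPM in KO-WT libraries and 15107, 16645 and 16100.2 CPM in KO-NLS libraries, groups that overlap each other. Both passed as lower than KO, with log2 fold changes of -0.39 for KO-WT and -0.45 for KO-NLS. It had 20897, 21662 and 20436 CPM in KO-NES libraries, which overlap the KO libraries, and the log2 fold change of -0.05 did not pass (edgeR adjusted p = 0.263). KO-NLS was lower than KO-NES by a log2 fold change of -0.40 ± 0.04 (edgeR adjusted p = 5.97e-07). KO-WT remained above WT by 3.02 ± 0.04 on the log2 scale (edgeR adjusted p = 1.91e-19), an 8.10-fold difference.

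MMP3, at chr11:102835801-102843803, cleaves proteoglycans, laminin and fibronectin. It had 42.4, 46.5 and 40.5 CPM in KO libraries, against 6.37, 6.10 and 6.04 CPM in WT libraries, a log2 fold change of 2.80 ± 0.13 (SE, edgeR adjusted p = 5.16e-13). It had 13.1, 13.7 and 13.3 CPM in KO+G libraries, 64.0, 66.3 and 64.3 CPM in KO-WT, 26.6, 37.8 and 32.8 CPM in KO-NLS, and 92.5, 123 and 110.3 CPM in KO-NES libraries. No 2 neighbours in the order KO-NES, KO-WT, KO, KO-NLS, KO+G and WT overlapped. Against KO, the log2 fold change was -1.69 in KO+G, 0.59 in KO-WT, -0.41 in KO-NLS and 1.34 in KO-NES, and all 4 passed. KO-WT was 10.5-fold above WT (edgeR adjusted p = 5.77e-14), a log2 fold change of 3.39.

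MMP10, a stromelysin close to MMP3, was low throughout. It had 1.51, 2.24 and 2.71 CPM in KO libraries, against 1.35, 1.23 and 1.44 CPM in WT libraries, a log2 fold change of 0.68 ± 0.20 (SE, edgeR adjusted p = 0.00533). That call rests on KO replicate 3: without it the log2 fold change was 0.48 (adjusted p = 0.0502), and with a transcript length offset the adjusted p was 0.172. It had 0.340, 0.563 and 0.560 CPM in KO+G libraries, all below every KO and WT library, and the log2 fold change against KO was -2.13. Against KO it was -1.13 in KO-WT, -1.66 in KO-NLS and -0.71 in KO-NES, and all passed. The KO-NES call was lost without KO replicate 3 (-0.51, adjusted p = 0.0574) and turned to 0.49 (adjusted p = 0.401) with the length offset. The KO-WT call was lost with that offset as well (-0.34, adjusted p = 0.576). A short transcript, MMP10-202, held on average 30.5 counts in KO-NES libraries and 0 in KO and WT libraries.

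MMP13, a collagenase, had 102 counts summed over the KO libraries and 53 over the WT libraries and did not pass (log2 fold change 0.72, edgeR adjusted p = 0.113), though it did with those 6 libraries fitted alone (0.74, adjusted p = 0.0425). It had 29 counts in KO+G, which was lower than KO (log2 fold change -1.55, edgeR adjusted p = 0.00489). It had 61 counts in KO-NLS against 180 in KO-NES, a log2 fold change of -1.61 (edgeR adjusted p = 0.00491). Within the cluster MMP1, MMP3, MMP10 and MMP13 were thus all lower in KO-NLS than in KO-NES and all lower in KO+G than in KO. The coding genes within 1 Mb on either side, a set chosen after values were seen, did not rise together in KO against WT. Of 10 tested, BIRC3 passed as higher (log2 fold change 1.20) and BIRC2, YAP1, PDGFD and DYNC2H1 as lower. Over all genes, 35.9% passed as higher and 36.8% as lower. The median log2 fold change of the 10 was -0.08.

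The gelatinases, which cleave denatured collagen and basement membrane collagen, were near the limit of detection. MMP2 had 1 count summed over the KO libraries and 60 over the WT libraries, a WT over KO ratio of 69.2 with an exact 95% interval of 11.9 to 2780 that covers counting error only. It had 3 counts in KO+G, 0 in KO-WT, 2 in KO-NLS and 1 in KO-NES libraries, so no rescue group approached WT. With its 0 counts replaced by a floor of 3 for the whole group, KO-WT was 21.9-fold lower than WT. Without the floor, the exact 95% interval of the WT over KO-WT ratio starts at 17.2. MMP9 had 0.144, 0.532 and 0.507 CPM in KO libraries, against 0.150, 0.148 and 0.360 CPM in WT libraries, groups that overlap (log2 fold change 0.84, edgeR adjusted p = 0.122). It passed as higher in KO without KO replicate 1 (1.23, adjusted p = 0.0191) or without WT replicate 3 (1.41, adjusted p = 0.0299). It had 0.0849, 0.0751 and 0.108 CPM in KO+G libraries, all below every KO library (log2 fold change -2.12, edgeR adjusted p = 0.00261). MMP9 also passed as lower than KO in the KO-WT, KO-NLS and KO-NES groups, but each of those calls was lost without KO replicate 2 (adjusted p = 0.134, 0.125 and 0.0573) and without KO replicate 3 (0.128, 0.119 and 0.0551).

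MMP14, the membrane-type enzyme that activates pro-MMP2 together with TIMP2, moved opposite to MMP1 in KO against WT. It had 330.3, 373 and 347 CPM in KO libraries, against 704, 728 and 712 CPM in WT libraries, a log2 fold change of -1.03 ± 0.04 (SE, edgeR adjusted p = 2.94e-14). It had 471, 479 and 464 CPM in KO+G, 582, 575 and 544 CPM in KO-WT, 490.1, 516 and 519 CPM in KO-NLS, and 614, 645 and 643 CPM in KO-NES libraries. All 6 groups were separate from their neighbours, in the order WT, KO-NES, KO-WT, KO-NLS, KO+G and KO. Against KO, the log2 fold change was 0.43 in KO+G, 0.70 in KO-WT, 0.54 in KO-NLS and 0.86 in KO-NES. KO-WT stayed below WT by a log2 fold change of -0.33 ± 0.04 (edgeR adjusted p = 2.91e-07).

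MMP16, a membrane-type enzyme on chromosome 8, was also lowest in KO and highest in WT cells, at a lower level than MMP14. It had 4.10, 4.97 and 4.61 CPM in KO libraries, against 10.6, 11.1 and 12.9 CPM in WT libraries, a log2 fold change of -1.34 ± 0.09 (SE, edgeR adjusted p = 2.01e-10). It had 6.24, 6.48 and 5.75 CPM in KO+G, 6.52, 7.09 and 6.29 CPM in KO-WT, 6.88, 7.30 and 6.19 CPM in KO-NLS, and 8.23, 7.41 and 7.63 CPM in KO-NES libraries. All 4 passed as higher than KO and none reached the lowest WT library. MMP15, also membrane-bound, was lower in KO than in WT (log2 fold change -0.50, edgeR adjusted p = 1.01e-05) and higher in KO+G than in KO (0.71, 2.62e-07). KO-WT did not differ from WT past the threshold for MMP15 (log2 fold change -0.02 ± 0.07). MMP24 had 26 counts over the KO libraries and 78 over the WT libraries, and was lower in KO (log2 fold change -1.77 ± 0.30, edgeR adjusted p = 4.21e-05).

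MMP11, a stromelysin activated inside the cell by furin, had 6.11, 5.85 and 5.98 CPM in KO libraries, against 2.42, 2.65 and 2.98 CPM in WT libraries. The groups were separate, with a log2 fold change of 1.16 ± 0.10 (SE, edgeR adjusted p = 3.36e-09). It had 4.07, 4.02 and 3.98 CPM in KO+G libraries and passed as lower than KO (-0.57), a call lost over protein_coding transcripts alone (-0.65, adjusted p = 0.0685) and with the length offset (0.0508). KO-WT libraries, at 5.96, 5.95 and 4.89 CPM, overlapped KO. MMP19 passed as higher in KO than in WT (log2 fold change 0.85), but most of its counts lay on transcripts annotated for decay. Its coding transcripts held 5.94% of its counts in KO and 11.1% in WT libraries, and over these alone the log2 fold change was 0.05 (adjusted p = 0.977). MMP21 and MMP23B did not pass in any comparison, except that MMP21 passed as higher in KO than in WT without WT replicate 1 (1.57 against 1.09, adjusted p = 0.0328) and MMP23B as lower in KO-NES than in KO without KO-NES replicate 3 (-1.04 against -0.69, adjusted p = 0.0106).

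**Figure D2:**
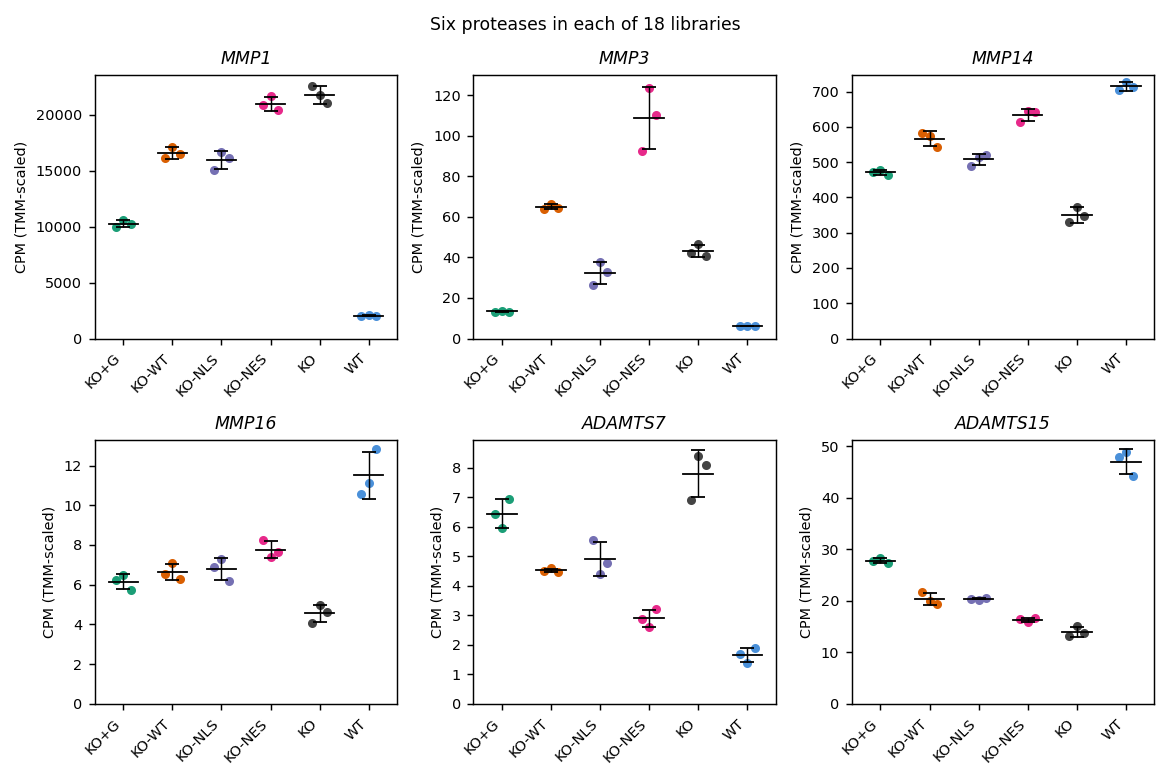
TMM-scaled CPM (y axis, from 0) of 6 proteases in each library (points), with the group mean (line) and SD (bar, n = 3), groups KO+G, KO-WT, KO-NLS, KO-NES, KO and WT from left to right. MMP1 lies between 2005 and 2128 CPM in WT and between 9934 and 22573 CPM in all other libraries, while MMP14 is lowest in KO and highest in WT.

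ADAMTS7, a protease that cuts cartilage oligomeric matrix protein and thrombospondin-1, was the ADAMTS gene with the largest rise in KO among those above 1 CPM. It had 6.92, 8.39 and 8.11 CPM in KO libraries, against 1.69, 1.40 and 1.88 CPM in WT libraries, a log2 fold change of 2.23 ± 0.12 (SE, edgeR adjusted p = 6.37e-12). It had 6.43, 5.97 and 6.93 CPM in KO+G, 4.49, 4.59 and 4.48 CPM in KO-WT, 5.55, 4.41 and 4.79 CPM in KO-NLS, and 2.87, 2.61 and 3.21 CPM in KO-NES libraries. KO-NES was the lowest group among knockout cells, with a log2 fold change of -1.43 against KO. KO-NLS was 0.77 ± 0.11 higher than KO-NES on the log2 scale (edgeR adjusted p = 7.76e-05), the opposite direction to MMP1 and MMP3. KO+G overlapped KO, and its call (-0.28, edgeR adjusted p = 0.0342) was lost without KO replicate 2 (0.13), KO replicate 3 (0.0993), KO+G replicate 1 (0.07) or KO+G replicate 2 (0.136).

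ADAMTS15, a protease of aggrecan and versican, went the other way. It had 13.1, 15.05 and 13.8 CPM in KO libraries, against 47.9, 48.8 and 44.3 CPM in WT libraries, a log2 fold change of -1.75 ± 0.05 (SE, edgeR adjusted p = 1.31e-15). It had 27.7, 28.3 and 27.4 CPM in KO+G, 21.7, 19.99 and 19.3 CPM in KO-WT, 20.4, 20.3 and 20.6 CPM in KO-NLS, and 16.5, 15.8 and 16.6 CPM in KO-NES libraries. KO+G had the highest level among knockout cells, 0.99 above KO on the log2 scale, and no knockout library reached WT. ADAMTS12, with the AP-1 letters shown above, was lower in KO than in WT by a log2 fold change of -0.66 ± 0.03 (edgeR adjusted p = 2.71e-12). ADAMTS12 passed as lower in KO-NES than in KO (-0.17, edgeR adjusted p = 3.33e-04). It did not pass between KO+G, KO-WT or KO-NLS and KO. With the length offset it passed as lower in KO+G (-0.13, adjusted p = 0.0438) and in KO-WT (-0.15, adjusted p = 0.029). KO-WT stayed below WT (-0.69).

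ADAMTS3, a procollagen N-propeptidase that also activates VEGFC, had 2.28, 2.57 and 2.23 CPM in KO libraries, against 5.37, 5.30 and 5.08 CPM in WT libraries. The groups were separate, with a log2 fold change of -1.15 ± 0.10 (SE, edgeR adjusted p = 8.20e-09). It had 4.20, 4.51 and 4.44 CPM in KO+G, 3.28, 3.30 and 2.996 CPM in KO-WT, 3.39, 3.50 and 3.23 CPM in KO-NLS, and 3.86, 3.22 and 2.81 CPM in KO-NES libraries, all above every KO library and below every WT library. ADAMTS17 had 5.64, 5.88 and 5.71 CPM in KO libraries, against 3.12, 3.01 and 2.16 CPM in WT libraries, a log2 fold change of 1.06 ± 0.12. It was lower in KO+G and KO-WT than in KO, by log2 fold changes of -0.41 and -0.49. The KO+G call was lost with the length offset (-0.43, adjusted p = 0.123). The call against KO in KO-NLS (-0.32, edgeR adjusted p = 0.0278) was lost when any 1 of KO replicates 1 to 3 (0.0517, 0.0702 and 0.0551), KO-NLS replicate 1 (0.0571) or KO-NLS replicate 2 (0.113) was left out.

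The other ADAMTS genes moved less or were sparse. ADAMTS1, the most abundant ADAMTS by TPM in WT cells, did not differ past the threshold between KO and WT (log2 fold change -0.01 ± 0.03), but was lower in KO-NLS than in KO-NES (-0.49 ± 0.03, edgeR adjusted p = 1.09e-08). ADAMTS16 was higher in KO than in WT (0.54, edgeR adjusted p = 1.16e-07), and ADAMTS9 was as well (0.29), a call that the length offset ended (adjusted p = 0.978). The ADAMTS6 call (-0.15) was lost without KO replicate 2 (adjusted p = 0.0593). It describes all ADAMTS6 transcripts together, since coding transcripts held 74.57% of its counts in KO and 41.04% in WT libraries. Over protein_coding transcripts alone, ADAMTS6 passed as lower than KO in KO+G (-0.49, adjusted p = 0.00915), KO-NLS (-0.61, 0.00227) and KO-NES (-0.60, 0.00275), but not in KO-WT. None of these passed over all transcripts. ADAMTS18 had 43 counts over the KO libraries and 2 over the WT libraries, a ratio of 18.7 with an exact 95% interval of 4.86 to 159. ADAMTS5, an aggrecanase, ADAMTS13, which cleaves von Willebrand factor, and ADAMTS14 did not pass between KO and WT. ADAMTS13 passed as higher there without KO replicate 1 (1.04 against 0.71, adjusted p = 0.0298), and ADAMTS14 as lower without WT replicate 3 (-0.93 against -0.64, adjusted p = 0.0343).

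TIMP1 was the most abundant inhibitor on the per-length scale, at 1379 TPM in KO and 921 TPM in WT cells. It had 289.9, 339.8 and 293 CPM in KO libraries, against 218, 217 and 233 CPM in WT libraries, a log2 fold change of 0.47 ± 0.05 (SE, edgeR adjusted p = 3.30e-07). It had 128, 129 and 122 CPM in KO+G libraries, below every other library of the series, with a log2 fold change of -1.28 against KO. It had 237, 239 and 226 CPM in KO-WT libraries, which overlap WT (log2 fold change 0.07 ± 0.05, edgeR adjusted p = 0.247). With those 6 libraries fitted alone TIMP1 passed as higher in KO-WT than in WT (0.10, adjusted p = 0.0388), as it did with no filter (0.0201) and with the length offset (0.0385). It had 175, 192 and 186 CPM in KO-NLS against 251, 277 and 265 CPM in KO-NES libraries, a log2 fold change of -0.52 ± 0.05 (edgeR adjusted p = 1.75e-06). The small KO-NES difference from KO (-0.22) did not pass with the length offset (adjusted p = 0.0564).

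TIMP2, the inhibitor that bridges MMP14 and pro-MMP2, had 331, 366 and 353 CPM in KO libraries, against 453, 447 and 469.7 CPM in WT libraries, a log2 fold change of -0.38 ± 0.03 (SE, edgeR adjusted p = 5.15e-09). It had 410.3, 416 and 404 CPM in KO+G, 561, 535 and 531 CPM in KO-WT, 491, 471 and 493 CPM in KO-NLS, and 406, 409.9 and 417 CPM in KO-NES libraries. All 4 groups were above every KO library, and KO-WT and KO-NLS were above every WT library as well.

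TIMP3, which is held in the matrix and also blocks ADAM and ADAMTS enzymes, had 184, 186 and 197 CPM in KO libraries, against 381, 363 and 404 CPM in WT libraries. The groups were separate, with a log2 fold change of -1.02 ± 0.07 (SE, edgeR adjusted p = 2.71e-10). It had 170.3, 151 and 163 CPM in KO+G, 243, 221 and 248 CPM in KO-WT, 246, 196 and 231 CPM in KO-NLS, and 179, 158 and 173 CPM in KO-NES libraries. KO+G was lower than KO (-0.23), a call lost without KO+G replicate 2 (-0.18, adjusted p = 0.0671). KO-NLS was higher than KO (0.25), a call lost without KO-NLS replicate 1 (0.17, adjusted p = 0.0595), and higher than KO-NES (0.40 ± 0.07, edgeR adjusted p = 4.38e-04).

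TIMP4 had 0.755, 1.08 and 1.12 CPM in KO libraries, against 3.27, 3.05 and 4.10 CPM in WT libraries, a log2 fold change of -1.81 ± 0.19 (SE, edgeR adjusted p = 9.78e-08). It had 1.27, 1.24 and 1.21 CPM in KO+G, 0.559, 0.726 and 0.763 CPM in KO-WT, 1.16, 0.886 and 0.828 CPM in KO-NLS, and 0.994, 0.786 and 1.22 CPM in KO-NES libraries. No knockout library reached WT. The KO-WT call against KO (-0.53, edgeR adjusted p = 0.038) was lost without KO replicate 2 (0.113), KO replicate 3 (0.144), KO-WT replicate 1 (0.153) or KO-WT replicate 2 (0.0568). On the per-length scale, summed MMP levels were 14557 to 15576 TPM per library in KO and 1646 to 1740 TPM in WT cells, while summed TIMP levels were 1432 to 1724 TPM in KO and 1066 to 1217 TPM in WT cells. In KO+G cells, MMPs summed to 6679 to 7368 TPM and TIMPs to 714 to 743 TPM. Both sums are levels of RNA, carried mainly by MMP1 and by TIMP1.

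**Figure D3:**
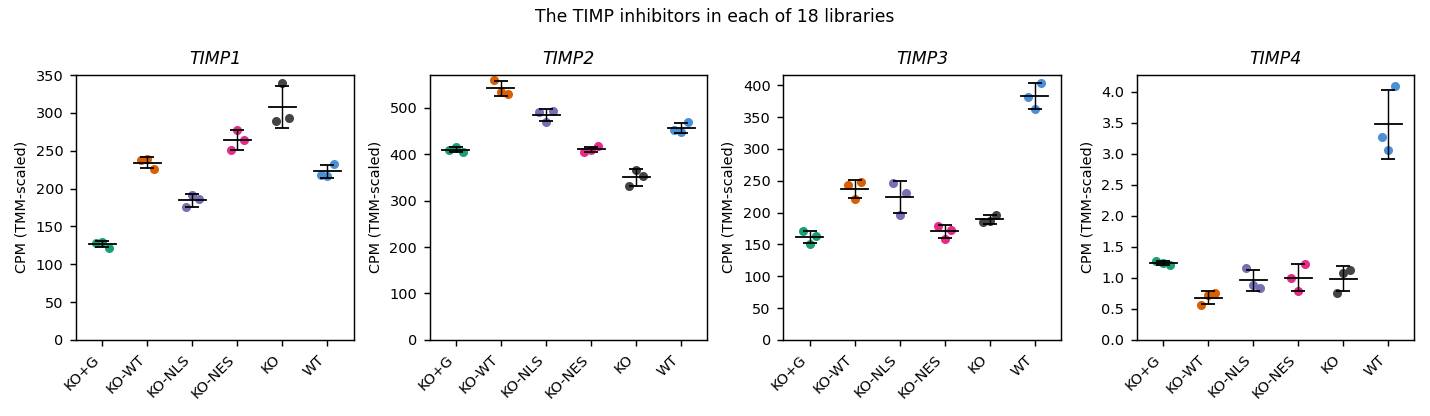
TMM-scaled CPM (y axis, from 0) of the 4 TIMP genes in each library (points), with group mean (line) and SD (bar, n = 3), groups KO+G, KO-WT, KO-NLS, KO-NES, KO and WT from left to right. TIMP1 is lowest in KO+G, TIMP2 is lowest in KO, and TIMP3 and TIMP4 are highest in WT.

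The comparisons of KO+G, KO-WT, KO-NLS and KO-NES with KO share the 3 KO libraries with each other and with KO against WT, so their counts are given side by side and are not independent. In KO+G, 8 of the 31 members passed as higher and 11 as lower than KO (61.3%), against 56.5% of all genes. A log2 fold change of at least 1 in size was passed by 6 members (19.4%, against 7.69% of all genes), and 21 did not overlap between the groups (67.7%, against 62.4%). In KO-WT, 8 passed as higher and 8 as lower than KO (51.6%), against 50.8% of all genes. There 2 had a log2 fold change of at least 1 in size (6.5%, against 4.96%), and 14 did not overlap (45.2%, against 58.2%). In KO-NLS, 8 passed as higher and 9 as lower than KO (54.8%), against 53.0% of all genes. Again 2 had a log2 fold change of at least 1 in size (6.5%, against 6.0%), and 15 did not overlap (48.4%, against 59.7%). In KO-NES, 8 passed as higher and 7 as lower than KO (48.4%), against 50.6% of all genes. Of these, 3 had a log2 fold change of at least 1 in size (9.7%, against 5.52%), and 16 members did not overlap (51.6%, against 55.3%). The shares that passed are near those of all genes in all 4 comparisons. Between KO-WT and WT, 10 members passed as higher and 11 as lower (67.7%), against 64.5% of all genes, and 9 of them had a log2 fold change of at least 1 in size (9 of 31, against 14.9% of all genes). KO-WT and WT libraries did not overlap for 23 members (74.2%, against 68.8%).

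**Figure D4:**
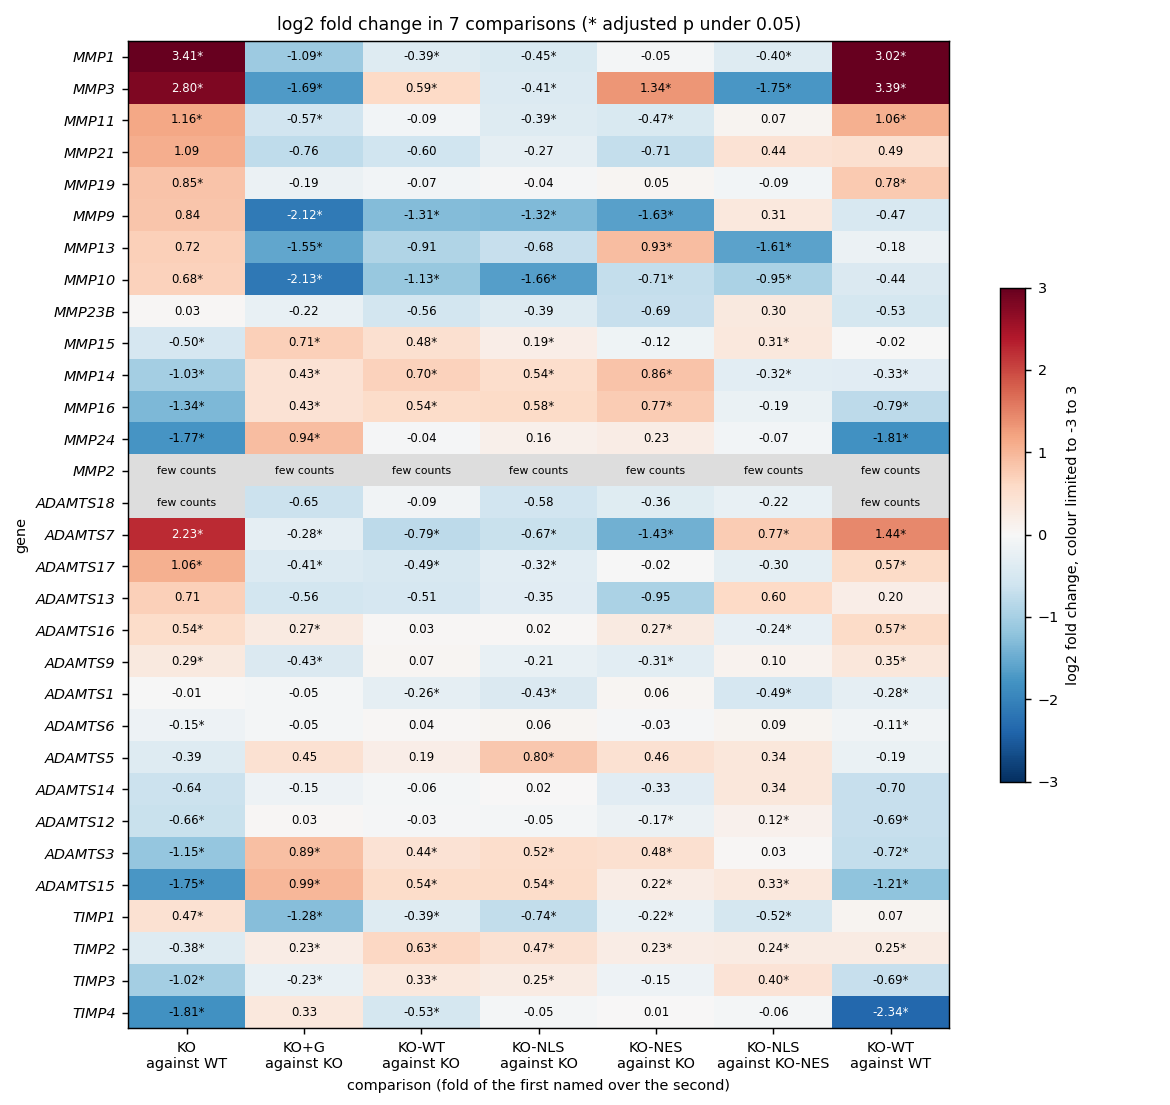
Log2 fold change of each tested member (rows) in 7 comparisons (columns, first named group over the second), with an asterisk where the adjusted p is under 0.05 and grey where a group has 3 counts or fewer in sum. MMP1 and MMP3 stay far above WT in the last column, KO-WT against WT, at 3.02 and 3.39.

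Nuclear and cytosolic IMPDH2 were compared directly in the knockout background, at IMPDH2 levels of 297 CPM in KO-NLS and 379 CPM in KO-NES cells. Of 31 members, 6 passed as higher and 8 as lower in KO-NLS than in KO-NES (45.2%), against 23.9% of all genes, and 17 did not overlap (54.8%, against 36.2%). The median size of the log2 fold change was 0.31 over the members and 0.13 over all genes. Lower in KO-NLS were MMP1, MMP3, MMP10, MMP13, MMP14, TIMP1, ADAMTS1 and ADAMTS16. Higher in KO-NLS were MMP15, ADAMTS7, ADAMTS12, ADAMTS15, TIMP2 and TIMP3. The ADAMTS12 difference was small (0.12, edgeR adjusted p = 0.0142). It did not pass without KO-NES replicate 3 (0.0728) or KO-NLS replicate 2 (0.0543), or with the length offset (0.105). The ADAMTS16 difference (-0.24) did not pass over protein_coding transcripts alone (adjusted p = 0.112) or with the length offset (0.733). MMP3 and MMP13 were the members with a log2 fold change of at least 1 in size, against 1.73% of all genes. IMPDH2 level also differed between these groups (log2 fold change -0.35), and the part of that difference in these values was not tested.

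Genes that act with these proteases were taken from lists chosen with earlier results of these data known, and are described by counts alone, to be read against the 35.9% of all genes that passed as higher and the 36.8% that passed as lower in KO than in WT. Of 16 tested partners of MMP activation and inhibition, 6 passed as higher and 8 as lower in KO than in WT (median log2 fold change -0.11, against 0.01 for all genes). TFPI2, a serine protease inhibitor of the matrix, averaged 306 CPM in KO and 43.6 CPM in WT cells (log2 fold change 2.81, edgeR adjusted p = 2.48e-19), and was lower in KO+G than in KO (-1.97). SERPINB2, an inhibitor of urokinase, averaged 0.351 CPM in KO and 48.7 CPM in WT cells (-7.12, edgeR adjusted p = 1.00e-15). LRP1, a receptor that clears MMP and TIMP complexes, averaged 38.4 CPM in KO and 90.7 CPM in WT cells, and thrombospondin-1 (THBS1) averaged 488 CPM in KO and 1099.9 CPM in WT cells.

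Of 12 ADAM family genes and regulators tested, 10 passed as lower and 1 as higher in KO than in WT, where 36.8% of all genes passed as lower. Their median log2 fold change was -0.55, against 0.01 for all genes. ADAM19 averaged 11.6 CPM in KO and 37.3 CPM in WT cells, ADAM8 64.9 CPM in KO and 147 CPM in WT cells, and ADAM9 191 CPM in KO and 352 CPM in WT cells. ADAM10, a main sheddase of NOTCH and cadherins, was lower by a log2 fold change of -0.56. The ADAMTS-like proteins, which resemble ADAMTS genes but lack the protease domain, had 4 of 6 higher and 1 lower. ADAMTSL4 averaged 16.9 CPM in KO and 2.59 CPM in WT cells (2.70, edgeR adjusted p = 1.31e-15).

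Of 25 matrix proteins tested that these enzymes cut, 21 passed as lower in KO than in WT, where 36.8% of all genes did. Their median log2 fold change was -0.72, against 0.01 for all genes. COL4A5, a chain of basement membrane collagen, had 2 counts over the KO libraries and 3117 over the WT libraries. COL7A1 averaged 15.9 CPM in KO and 55.8 CPM in WT cells (-1.82), COL1A1 3.90 CPM in KO and 12.2 CPM in WT cells (-1.64), and COL5A1 27.4 CPM in KO and 81.5 CPM in WT cells (-1.57). In KO+G, 7 of the 25 passed as higher and 8 as lower than KO, near the 27.3% and 29.2% of all genes.

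Of 15 tested AP-1 and ETS factors, families known to bind MMP promoters, 6 passed as higher and 5 as lower in KO than in WT, with a median log2 fold change of 0.17. FOS averaged 9.11 CPM in KO and 4.76 CPM in WT cells (0.93), and JUNB 79.0 CPM in KO and 46.2 CPM in WT cells (0.77). FOSL2 averaged 108 CPM in KO and 208 CPM in WT cells (-0.95), and ETS2 was lower as well (-0.70). In KO+G against KO the log2 fold change was -0.96 for FOS, -0.52 for JUNB and 0.81 for FOSL2, and all 3 passed.

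**Figure D5:**
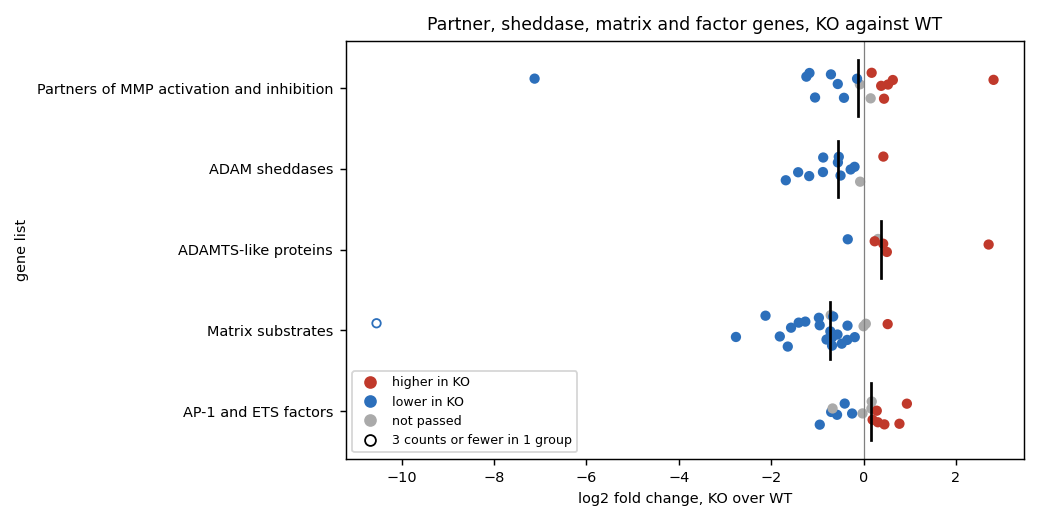
Log2 fold change of KO over WT (x axis) for each tested gene of 5 lists (rows), with the list median as a vertical bar and vertical spread added so that points can be seen. The medians are -0.55 for the ADAM family genes and regulators (labelled ADAM sheddases) and -0.72 for matrix substrates. The open point is COL4A5, with 2 counts in KO.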

How the data were processed

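RNA was sequenced from 18 libraries of MDA-MB-231 cells, made with a stranded mRNA kit from 500 ng of total RNA, per the labels' protocols. Per the submitters' processing notes, Trim Galore 0.6.10, Salmon 1.10.0 and build hg19 were used. The deposited files hold the authors' estimated counts per transcript (252048 transcripts) and TPM; the transcript identifiers are of a newer GENCODE annotation, so positions are those of GENCODE 29 on GRCh38. The labels' cell line field counts upward from MDA-MB-231 sample by sample, and the growth protocol, which names MDA-MB-231, was followed. Estimated counts were summed to genes and rounded, 19252 genes passed edgeR's filterByExpr, and TMM scaling gave CPM. The 7 comparisons were tested in 1 fit of 6 group means with edgeR 4.0.16 (R 4.3.3) by its quasi-likelihood test, with p-values adjusted by Benjamini-Hochberg over all genes within each comparison. The test was checked on counts simulated for KO against WT, with changes of 0.5, 1 and 2 on the log2 scale. It recovered 83.6%, 97% and 100% of those genes, and 5.6% of its calls were false. Far fewer genes were changed there than passed in the real libraries, so scaling under broad change was not checked.

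Alternatives were DESeq2 1.42.0 and its size factors, no filter, 6 libraries alone, protein_coding transcripts only, a transcript length offset, a log2 fold change of at least 1 in size beside the adjusted p, a replicate block, and each library left out. Members are described singly if they averaged at least 1 CPM and passed with a log2 fold change of at least 1 in size in some comparison, with every TIMP; other genes singled out were chosen after their values were seen. Up to 4 genes of each list are named, by their fold in KO against WT. The members and lists were chosen with earlier results of these data known. Depth was 45865079 to 63276484 counts per library; intervals and floors cover counting error only. Promoters are from RefSeq. The result for 1 gene of the matrix list is not reported here.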

Additional observations from a re-analysis of the deposited data

How the results depend on the processing

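For the 14 members described singly, 7 comparisons gave 98 log2 fold changes, and 1274 values under alternatives. Of these, 1230 kept their direction and their side of the threshold, 34 no longer passed, 9 newly passed and 1 reversed. The reversal was MMP10 in KO-NES against KO, 0.49 with the transcript length offset (adjusted p = 0.401). Counting only members whose estimated log2 fold change was also at least 1 in size, beside the same adjusted p, left 6 higher and 8 lower in KO against WT, 0 higher and 6 lower in KO+G against KO, 0 and 2 in KO-WT against KO, 0 and 2 in KO-NLS against KO, 1 and 2 in KO-NES against KO, 0 and 2 in KO-NLS against KO-NES, and 5 and 4 in KO-WT against WT. Fewer members are counted because a second criterion is applied to the same test. With the length offset, 4 members passed as lower in KO-NES against KO, and the cause was not tested.

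With each library left out in turn, members called higher and lower ranged over 10 to 13 and 11 to 13 in KO against WT, 7 to 9 and 10 to 12 in KO+G against KO, 8 to 8 and 6 to 8 in KO-WT against KO, 6 to 7 and 7 to 9 in KO-NLS against KO, 7 to 8 and 5 to 8 in KO-NES against KO, 5 to 6 and 8 to 9 in KO-NLS against KO-NES, and 10 to 10 and 10 to 11 in KO-WT against WT. Replicate numbers did not consistently pair the libraries. Once group means were subtracted, the remaining log2 values of same-numbered libraries correlated at -0.129 to 0.188. Only KO-NES against KO rose above the threshold of 0.1 set for pairing. It did so for replicate 1 (0.102) and replicate 3 (0.188), but not for replicate 2 (-0.029). A replicate block gave 11 members higher and 12 lower in KO against WT, and left 96 of the 98 single values on their side of the threshold, with 2 newly passing. Under the block, MMP9 in KO-WT against KO (adjusted p = 0.0576) and MMP15 in KO-NLS against KO (adjusted p = 0.0514) no longer passed. Low counts limit the 15 members under the filter, MMP2 and ADAMTS18.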
